A study of Homo sapiens with 4 samples.

Results

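The 2′-5′-oligoadenylate synthetase (OAS) family was described in a breast cancer cell line with a knockdown of the kinase AURKA. The members were the 4 genes named OAS1, OAS2, OAS3 or OASL in the deposited tables, of 20137 genes in all, and each name belonged to 1 gene ID. RNA of MDA-MB-231, a line of triple-negative type, was sequenced in 4 libraries: 2 were labelled AURKA KD (titles shA) and 2 were labelled control (titles shC, described in the series text as mock-transfected). L-15 medium with serum was used for every culture. The labels give no hairpin sequence, no time after transfection and no number of clones, so the groups stand for 1 line and 1 kind of knockdown. AURKA itself was at 124 and 99.1 FPKM in control cells against 22.3 and 23.7 FPKM with the knockdown (fragments per kilobase of transcript, scaled to library depth, so a level per length), a log2 difference of -2.22 with an adjusted p in limma of 0.0819, and of 0.000696 with the replicate number as a term.

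OAS proteins are sensors of double-stranded RNA in the cytosol. OAS1, OAS2 and OAS3 carry 1, 2 and 3 copies of the OAS unit, and when bound to double-stranded RNA they join ATP into short chains with 2′-5′ bonds. These chains act as a second messenger of the antiviral response. OASL keeps the fold but has no synthetase activity in human cells, ends in a pair of ubiquitin-like repeats and is known to enhance signalling by the RNA sensor RIG-I. The family is a textbook set of interferon-stimulated genes, whose promoters hold an interferon-stimulated response element and OASL can also be switched on directly by IRF3.

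The RefSeq promoter table held 2 of the 4 members, OAS1 and OAS3. Their 300-base windows, 250 bases before and 50 bases from the start site on, are shown because both hold letters of the response element just before the start. They are printed 5′ to 3′ on the plus strand of GRCh38.p14, OAS1 at chr12:112906712-112907011 and OAS3 at chr12:112938224-112938523. Capitals mark matches to GAAANNGAAA or GGAANNGAAA, 2 spellings of the element, and to the word AACGAAAC, which overlaps them.
OAS1: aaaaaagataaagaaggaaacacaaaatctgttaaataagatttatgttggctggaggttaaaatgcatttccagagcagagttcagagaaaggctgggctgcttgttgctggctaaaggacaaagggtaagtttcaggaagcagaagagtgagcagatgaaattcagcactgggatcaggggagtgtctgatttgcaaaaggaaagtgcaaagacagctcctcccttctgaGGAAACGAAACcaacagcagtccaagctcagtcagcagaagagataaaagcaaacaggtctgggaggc
OAS3: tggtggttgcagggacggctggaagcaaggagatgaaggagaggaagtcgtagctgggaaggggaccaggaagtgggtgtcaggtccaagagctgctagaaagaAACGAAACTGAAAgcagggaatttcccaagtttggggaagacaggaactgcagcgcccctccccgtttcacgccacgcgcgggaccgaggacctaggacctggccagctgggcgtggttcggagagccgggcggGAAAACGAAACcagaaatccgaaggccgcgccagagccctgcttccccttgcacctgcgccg

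Both strands were searched, and every match was on the plus strand. In OAS1 the match to GGAANNGAAA stood at -18 to -9 from the start site and read GGAAACGAAA. In OAS3 a match to GAAANNGAAA stood at -12 to -3 and read GAAAACGAAA, and another at -143 to -134 read GAAACTGAAA. The word AACGAAAC stood at -15 to -8 in OAS1, and at -146 to -139 and -9 to -2 in OAS3. It was chosen after both promoters were read. Of 34796 distinct promoters of this length, 3.57% held the first motif, 2.83% the second, 6.14% either and 0.25% the word. These are matches of letters, and no binding was measured here. The windows differed in composition, with 44.0% G and C in OAS1 and 61.3% in OAS3, against a median of 58.7% over all promoters.

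OASL, the member without synthetase activity, was higher in the knockdown and passed only with the replicate number as a term of the fit. OASL (ENSG00000135114, minus strand of chromosome 12, 121458095 to 121477045, GRCh37) was at 10.5 and 12.1 FPKM in control cells against 25.9 and 33.7 FPKM with the knockdown. Both knockdown libraries lay above both controls by more than the spread within either group. The means were 11.3 ± 1.16 and 29.8 ± 5.48 FPKM (SD, n = 2 each), 2.63-fold apart, with 2.47-fold in replicate 1 and 2.77-fold in replicate 2. On log2(FPKM + 1), the scale of all differences tested here, the difference was 1.31, the 11th highest of 12136 genes tested. In the fit without the replicate number its standard error was 0.18 (95% interval 0.87 to 1.76). Whole cultures were measured, so fewer expressing cells and less RNA per cell in the controls cannot be told apart.

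OASL did not pass without that term. The adjusted p of limma was 0.299 without it and 0.00283 with it (95% interval 1.07 to 1.55). Within each replicate number the 2 tables listed the same transcripts in the same order. Between the numbers the order and some of the transcripts differed, and 1707 shared transcripts had another locus in control replicate 2 than in control replicate 1. Tables of 1 number were thus put through processing alike, and each number holds 1 library of each group. What else the number marks cannot be told apart from this. With the term OASL lost its call when no filter on low values was applied (adjusted p 0.101).

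**Figure D1:**
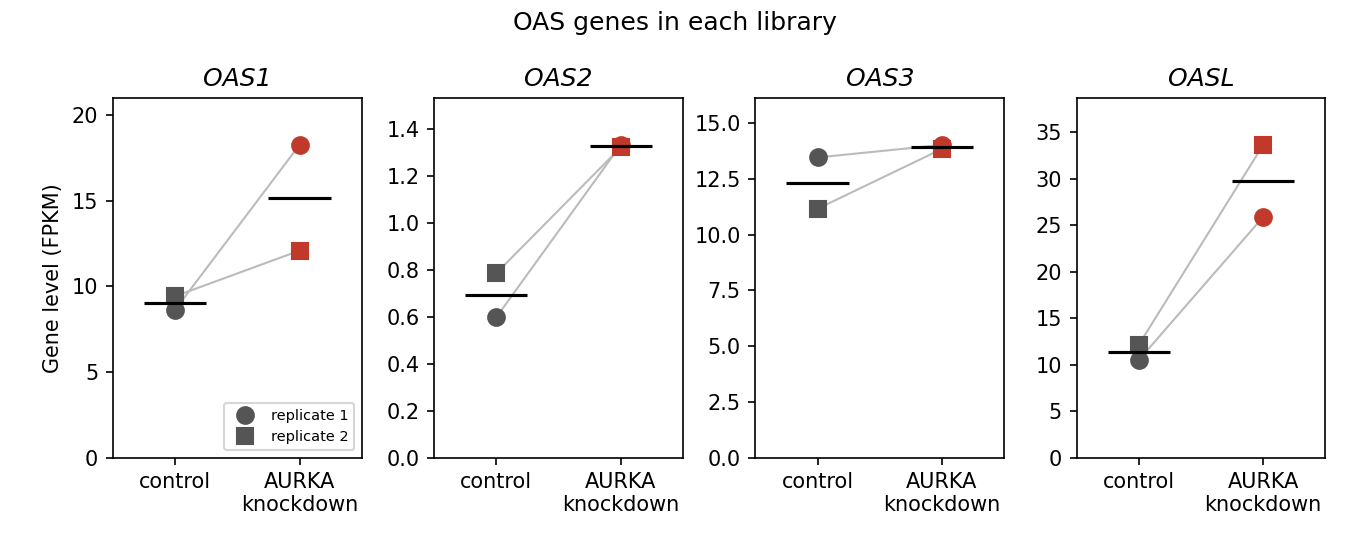
Level of each OAS gene in FPKM (vertical axes from 0, each gene with its own range) in the 2 control and 2 AURKA knockdown libraries; circles are replicate 1, squares replicate 2, grey lines join libraries of the same number and black bars are group means. OASL sits at 10.5 and 12.1 FPKM in control cells against 25.9 and 33.7 FPKM with the knockdown, while the OAS3 libraries lie between 11.2 and 14.03 FPKM.

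OAS1, the enzyme with a single OAS unit, was higher in both knockdown libraries but did not pass. OAS1 (ENSG00000089127, plus strand of chromosome 12, 113344582 to 113369990, GRCh37) was at 8.63 and 9.42 FPKM in control cells against 18.3 and 12.1 FPKM with the knockdown. The controls lay close together, and knockdown replicate 1 stood well above replicate 2. The means were 9.02 ± 0.557 and 15.2 ± 4.36 FPKM (SD, n = 2 each), and the fold was 2.11 in replicate 1 and 1.28 in replicate 2. The log2 difference was 0.66 (standard error 0.22, 95% interval 0.11 to 1.22), with an adjusted p in limma of 0.671 without and 0.0807 with the replicate number as a term. Without knockdown replicate 1 the log2 difference was 0.39, so that library decides much of its size. With the term it passed under median-of-ratios scaling (adjusted p 0.0316) and upper-quartile scaling (0.0272).

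OAS3, the enzyme with 3 OAS units, differed little. OAS3 (ENSG00000111331, plus strand of chromosome 12, 113376157 to 113411054, GRCh37) was at 13.5 and 11.2 FPKM in control cells against 14.03 and 13.8 FPKM with the knockdown. The knockdown libraries lay just above the higher control. The means were 12.3 ± 1.63 and 13.9 ± 0.128 FPKM (SD, n = 2 each), a log2 difference of 0.17 (standard error 0.15, adjusted p in limma 0.909 without and 0.414 with the replicate number). The 95% interval, -0.22 to 0.56, holds no difference as well as one of up to 0.56, and the value was 0.046 without control replicate 2 and 0.30 without control replicate 1.

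OAS2, the enzyme with 2 OAS units, was the lowest member, under 1 FPKM in both controls. OAS2 (ENSG00000111335, plus strand of chromosome 12, 113416200 to 113449528, GRCh37) was at 0.597 and 0.785 FPKM in control cells against 1.33 and 1.32 FPKM with the knockdown. About 26 and 52 fragments stood behind the control values and about 82 and 100 behind the knockdown values, by a rough estimate of depth. The log2 difference was 0.46 (standard error 0.23, 95% interval -0.12 to 1.04, adjusted p in limma 0.822 without and 0.199 with the replicate number). At this low level the pseudocount sets much of the size: with 0.1 in place of 1 the log2 difference was 0.86 (adjusted p in limma 0.826 without and 0.213 with the replicate number). Only the knockdown libraries brought OAS2 over the filter of 1 FPKM, so its place among the tested genes already depended on its being higher there.

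Of the 4 members, limma called 0 without the replicate number and 1, OASL, with it. Over all 12136 genes tested the shares were 0% without it (773 genes had an unadjusted p under 0.05) and 3.44% with it, and 1.53% were called higher. In each of the 4 genes both knockdown libraries lay above both controls, which held for 19.4% of the genes tested, and each was higher within both replicate numbers, which held for 35.3%. OAS2 had to be high in the knockdown to be tested, so these counts were not read as support.

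**Figure D2:**
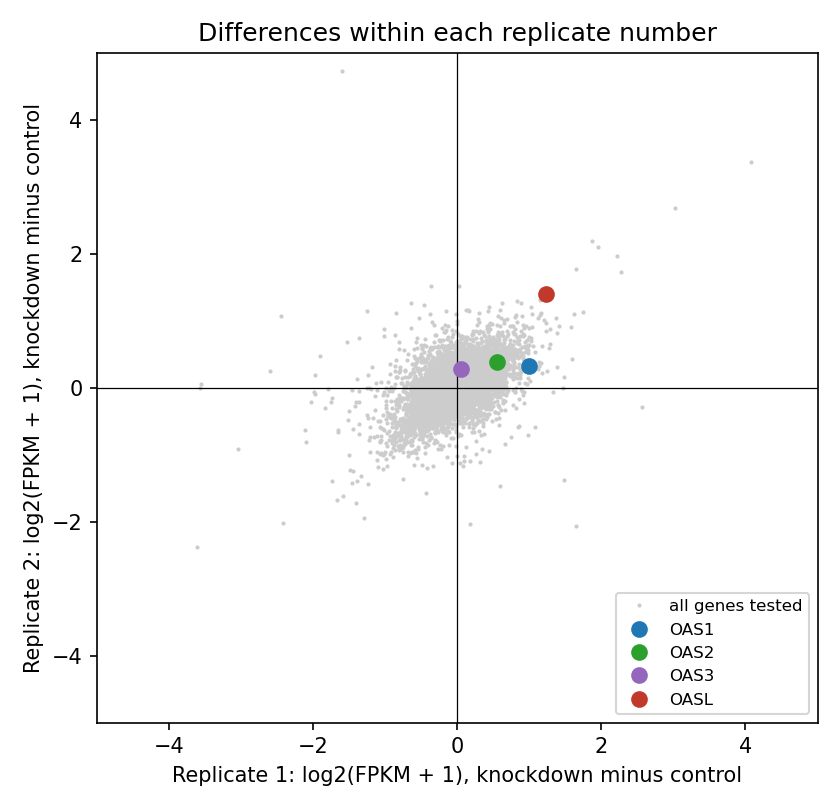
Difference between knockdown and control on log2(FPKM + 1) in replicate 1 (horizontal) and in replicate 2 (vertical); grey points are the 12136 genes tested, and coloured points the 4 OAS genes. OASL lies at 1.23 and 1.40, outside the bulk, OAS1 at 1.0 and 0.33, and OAS3 within the bulk.

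The order of the members by FPKM differed between the groups. In the controls OAS3 (11.2 to 13.5 FPKM) and OASL (10.5 to 12.1 FPKM) did not differ beyond their spread, OAS1 (8.63 to 9.42 FPKM) came next, and OAS2 (0.597 to 0.785 FPKM) was lowest. In the knockdown OASL (25.9 to 33.7 FPKM) was first, and OAS1 (12.1 to 18.3 FPKM) and OAS3 (13.8 to 14.03 FPKM) overlapped. The 4 members added up to 33.2 and 33.5 FPKM in control cells against 59.5 and 60.9 FPKM with the knockdown. OASL made up 31.6% and 36.2% of that sum in the controls and 43.5% and 55.3% in the knockdown, and OAS3 went from 40.6% and 33.3% to 23.6% and 22.7%.

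The members were also set against each other within each library, as log2 ratios of FPKM. The ratio of OASL to OAS3 was -0.36 and 0.12 in the controls and 0.89 and 1.28 in the knockdown, a shift of 1.24 in replicate 1 and 1.16 in replicate 2. The ratio of OASL to OAS1 shifted by 0.22 in replicate 1 and by 1.11 in replicate 2. That of OAS1 to OAS3 shifted by 1.02 in replicate 1 and by 0.05 in replicate 2. The shift against OAS3 was thus alike in both replicate numbers for OASL and not for OAS1. With 2 libraries against 2, an exact two-sided permutation test cannot give a p below 0.333, so these ratios are a description and whether members differ in response could not be tested.

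The transcript rows showed which annotated forms carried these levels. For OASL all 3 rows were higher in both knockdown libraries, as the gene's sum was. The share of all transcript rows that did so was not counted. OASL-202 and OASL-203 were under 1 FPKM in both controls, so their levels there rest on few reads. OASL-201, the full form of 514 codons with the ubiquitin-like repeats, was at 9.86 and 10.8 FPKM in control cells against 21.9 and 29.1 FPKM with the knockdown. OASL-202, a shorter form of 255 codons, was at 0.421 and 0.804 FPKM in control cells against 2.22 and 3.22 FPKM with the knockdown, so its share of the gene went from 4.01% and 6.63% to 8.57% and 9.57%. OASL-203, a partial model, was at 0.219 and 0.499 against 1.74 and 1.38 FPKM. The full form held 84.7% to 93.9% of the gene in all 4 libraries, with the lowest share in knockdown replicate 1.

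For OAS1 the highest row in every library was OAS1-201, a form of 400 codons that ends in a membrane-anchoring prenylation signal. OAS1-201 was at 8.35 and 7.28 FPKM in control cells against 16.6 and 10.2 FPKM with the knockdown, 77.3% to 96.8% of the gene. The forms of 364 codons (OAS1-203) and 414 codons (OAS1-202) stayed at 0.405 FPKM or less in every library. The short form OAS1-211, of 177 codons, made up 9.63% of the gene in control replicate 2 and 12.4% in knockdown replicate 2. For OAS1-201 alone the fold was 1.99 in replicate 1 and 1.40 in replicate 2, closer to each other than those of the gene's sum.

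For OAS3 the full form of 1087 codons, OAS3-201, was at 10.2 and 7.47 FPKM in control cells against 11.2 and 8.91 FPKM with the knockdown. Its groups overlapped, although the knockdown was higher within each replicate number. OAS3-207, of 177 codons, was at 1.31 and 1.58 against 2.30 and 2.21 FPKM, and OAS3-204, a partial model of 499 bases, was listed at 0 in knockdown replicate 1 and at 0.97 to 1.58 FPKM elsewhere.

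For OAS2 the highest row was OAS2-203, a short form of 172 codons, at 0.491 and 0.545 against 0.898 and 0.498 FPKM. OAS2-202, of 687 codons, was at 0.106 and 0.113 against 0.433 and 0.432 FPKM. OAS2-201, of 719 codons and so the longest coding form, was at 0.127 FPKM or less in every library. The groups did not overlap in OAS2-202 and did in OAS2-203 and OAS2-201. The share of all transcript rows without overlap was not counted. OAS2 also passed the filter only through the knockdown libraries, so the lack of overlap was not read as a trait of OAS2-202. OAS2-206, a partial model of 270 codons, was listed at 0 in 3 libraries and at 0.323 FPKM in knockdown replicate 2, where it made up 24.5% of the gene. These levels rest on few reads. Transcript rows were not tested, apart from the highest row of OAS1, OAS3 and OASL taken in place of the gene's sum, where OASL had an adjusted p in limma of 0.454 without and 0.0166 with the replicate number.

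**Figure D3:**
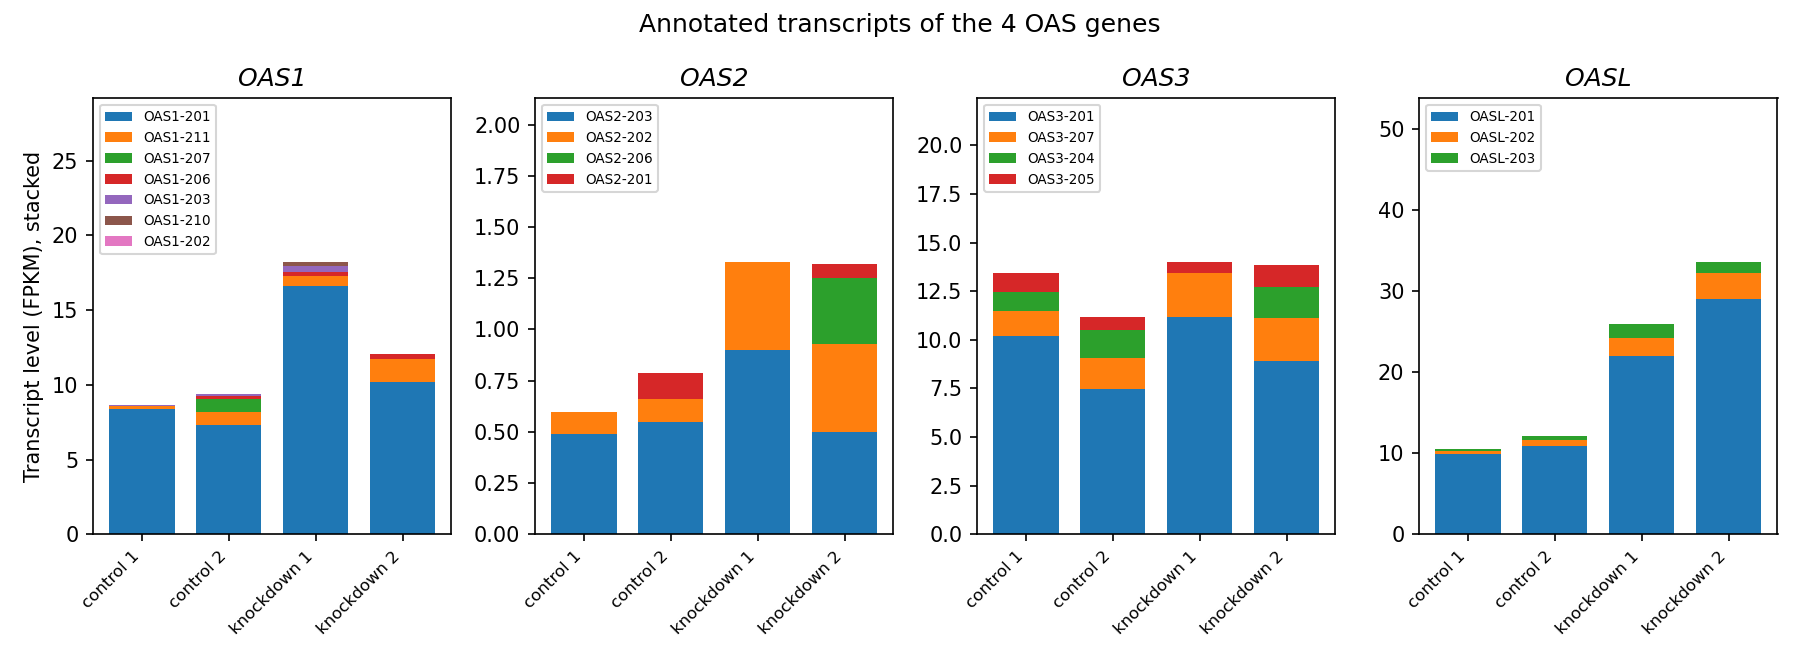
Annotated transcripts of each OAS gene in FPKM, stacked to the gene's sum, in control 1, control 2, knockdown 1 and knockdown 2 (vertical axes from 0, each gene with its own range); transcripts listed at 0 in every library are left out. OASL-201 and OAS1-201 make up most of their genes, and the OAS2 bars stay under 1.4 FPKM.

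Sequence shared with other genes was checked for the main transcripts. Of the words of 50 bases in the main transcripts of OAS2, OAS3 and OASL, 0 occurred in a GENCODE 29 transcript of another gene. In OAS1-201, 44 of 1767 words were shared with AC004551.1, a gene annotated over the same stretch. No source used here states the strand setting, so reads of the overlap cannot be told apart. Each member had a locus of its own in the deposited tables.

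The genes around the 2′-5′ chains were read next to the members. Of 9 genes for enzymes that break down or can cleave the chains and for RNA decay and ribosome rescue, all 9 were tested, 0 were called in either fit, near the 0% and 3.44% over all genes tested, and 4 were above 0 (median log2 difference -0.07, against 0.01 over all genes tested). ENPP1, an ectonucleotidase, had the largest difference, at 13.0 and 9.94 FPKM in control cells against 24.2 and 12.6 FPKM with the knockdown, with groups that overlapped (adjusted p in limma 0.835 and 0.0778). PDE12, the phosphodiesterase that degrades 2′-5′ chains, had 18.0 and 17.3 FPKM in control cells and 12.1 and 13.7 FPKM after knockdown (adjusted p in limma 0.668 and 0.0819). ABCE1, an ATPase of ribosome recycling, was at 65.3 and 80.0 against 63.6 and 74.6 FPKM.

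The interferon genes looked up were listed at 0 or at low levels. IFNB1, IFNL2 and IFNL3 were listed at 0 in all 4 libraries. IFNE and IFNL1 were above 0 only in control replicate 1 (0.043 and 0.178 FPKM), and IFNK was at 0.24 FPKM or less. Of 21 ligand, receptor and signalling genes 14 were tested, 0 were called in either fit, again near the shares over all genes, and 7 were above 0 (median -0.02). STAT2 was at 21.8 and 15.3 FPKM in control cells against 20.9 and 17.7 FPKM with the knockdown, and IRF9 at 21.3 and 13.2 against 23.95 and 16.1 FPKM. The groups overlapped in both genes. IFNAR2, a subunit of the type I interferon receptor, had the largest difference and was lower, at 16.4 and 17.3 against 13.8 and 12.3 FPKM (adjusted p in limma 0.779 and 0.135). IRF3 was at 48.1 and 38.3 against 48.4 and 35.7 FPKM. RNA levels do not show whether these proteins were active.

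The list of double-stranded RNA binding and sensing outside the family, adaptors included, had 14 genes. With the replicate number as a term 2 were called higher and 0 lower, where 1.53% of all genes tested were called higher. Above 0 were 10 of the 14 (median 0.15). The list was chosen with earlier results known, so the count is no independent evidence. ZC3HAV1, an antiviral protein that binds CpG-rich RNA, was at 19.4 and 22.7 FPKM in control cells against 32.1 and 40.4 FPKM with the knockdown (log2 difference 0.75, standard error 0.17, adjusted p in limma 0.518 without and 0.0122 with the term). DDX58, which encodes RIG-I, was at 16.7 and 14.9 against 22.7 and 29.1 FPKM (log2 difference 0.67, standard error 0.17, adjusted p 0.537 and 0.049). Both genes were higher in both replicate numbers, as OASL was, and like OASL neither was called with that term when no filter on low values was applied (0 genes called in all, smallest adjusted p 0.0651, 2790 genes at an unadjusted p under 0.05). EIF2AK2, the kinase PKR that shuts down translation on double-stranded RNA, was at 59.2 and 68.8 against 52.7 and 67.6 FPKM, with groups that overlapped. Neither the rises nor the others were tested against the change of OASL.

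**Figure D4:**
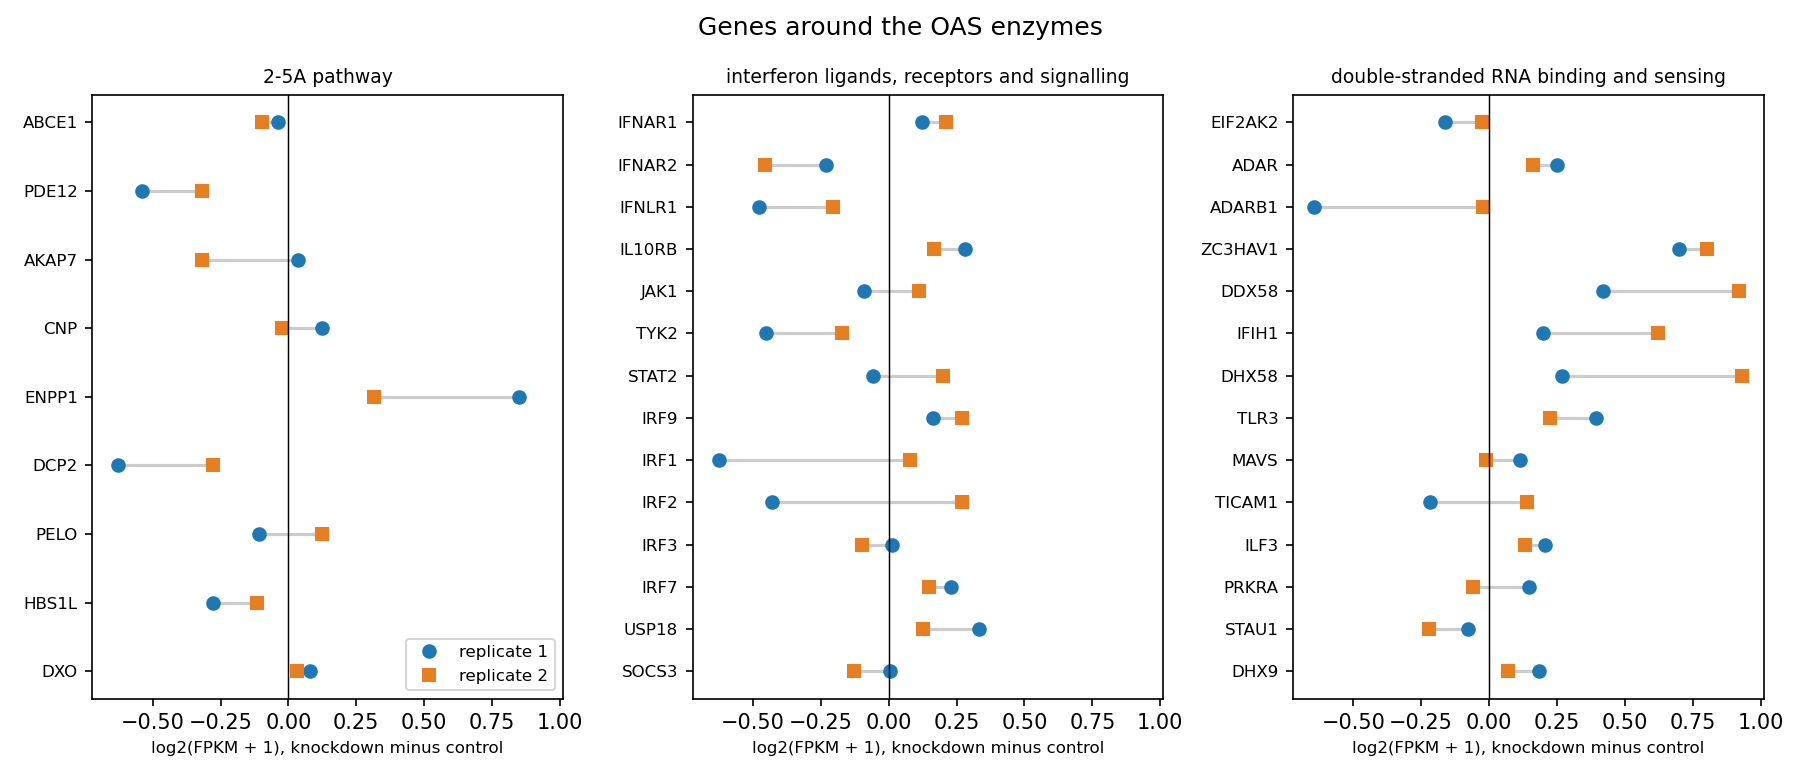
Difference between knockdown and control on log2(FPKM + 1) in replicate 1 (circles) and replicate 2 (squares) for the tested genes around the 2′-5′ chains, of interferon signalling and of double-stranded RNA sensing. ZC3HAV1 lies at 0.70 and 0.80 and DDX58 at 0.42 and 0.92, while EIF2AK2 lies at -0.16 and -0.02.

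The genes most like each member in pattern were found by distance. Likeness was measured as the distance between log2(FPKM + 1) values over the 4 libraries, each gene centred on its mean. The nearest gene to OASL was IFIT1, an interferon-stimulated RNA-binding protein, at a distance of 0.14 and with 26.6 and 33.1 FPKM in control cells against 60.1 and 83.1 FPKM with the knockdown. TCN1 (distance 0.21) and EVI2B (distance 0.21) came next, and 3 genes in all lay within 0.25 of OASL. TCN1 was low, at 0.199 and 0.482 FPKM in control cells against 1.69 and 2.21 FPKM with the knockdown. It passed the filter only through the knockdown libraries, and at that level the pseudocount sets much of the distance. For OAS1 the nearest were KIAA1644 (0.14), PLEKHG4 (0.15) and SYT1 (0.15), with 26 genes within 0.25. For OAS2 they were SUMF2, SYTL2 and C5, and for OAS3 ARHGAP11B, FAM63B and TERT, with 548 and 2588 genes within 0.25, so these neighbours are among many. C5, at 0.563 and 0.693 FPKM in control cells against 1.23 and 1.23 FPKM with the knockdown, passed the filter only through the knockdown libraries, as OAS2 did. With 4 libraries likeness is a description only. By distance from OASL, OAS2 ranked 241 among the tested genes, OAS1 ranked 308 and OAS3 ranked 2629.

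The libraries held between 718978 and 761641 FPKM in all and between 11739 and 12178 genes of at least 1 FPKM. Depth estimated from the steps of low values was 17300000 and 24400000 fragments in the controls and 21100000 and 27700000 in the knockdown. Markers of the line were high, with VIM at 1701 to 2068 FPKM, and of 5 leukocyte markers 0 reached 1 FPKM in any library and CD3E was listed at 0 in all 4. Of 8 luminal markers ESR1, PGR and CDH1 stayed under 1 FPKM in every library and the other 5 did not: CLDN4 ran from 36.9 to 67.8 FPKM, CLDN7 from 6.05 to 11.5, FOXA1 from 4.15 to 5.66, GATA3 from 2.07 to 2.36 and CLDN3 from 1.29 to 4.99. CLDN3, CLDN4, CLDN7 and FOXA1 were higher in both replicate 1 libraries than in both replicate 2 libraries.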

How the data were processed

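RNA-seq of 4 MDA-MB-231 libraries was used, 2 control and 2 AURKA knockdown, grouped and numbered by their titles. The authors deposited 1 table per library with values for 81493 transcripts. The unit is not named, and the deposited values were read as FPKM because they are not whole, have unequal sums and step at low values. Tools listed in the submitters' processing notes are HTSeq 0.8.0 and bcl2fastq 2.19, with the build hg38. For the FPKM program, the sources used here give no name. Locus coordinates are GRCh37, since 1 locus on chromosome 4 ends at 191013719, past that chromosome's end in GRCh38. Starts were moved by 1 to count from 1, because locus width equals the GENCODE 29 gene length without adding 1 in 7475 of 13972 loci and with it in 286.

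The 81412 transcripts present in all tables were summed to 20137 genes. Genes of at least 1 FPKM in at least 2 libraries were fitted with limma 3.58.1 (R 4.3.3, trend, log2(FPKM + 1), two-sided, Benjamini-Hochberg over 12136 genes, threshold 0.05). The main fit had no replicate term. A second fit, planned as an alternative, had it, and is printed beside the first. The series text calls the 2 libraries of a group biological replicates and names no separate cultures, so p-values measure only the spread between these samples. The scripts were tested on simulated data.

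Depth was estimated from single-transcript genes under 0.3 FPKM, whose ratios within a replicate number matched a ratio of whole numbers (6 at most, tolerance 0.3%) in 58.2% of 603 genes (replicate 1) and 51.0% of 588 genes (replicate 2), against 1.66% and 1.87% at the median other constant. Codons and transcript lengths are from GENCODE 29 and promoters from RefSeq.

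The members and lists were chosen with earlier results of these data known. The text names the members, AURKA, the interferon ligands, list genes past the threshold and the largest difference of each list, the 3 nearest genes by distance, and transcripts with at least 10% of their gene in 1 library. Other list genes (ABCE1, PDE12, STAT2, IRF9, IRF3, EIF2AK2, MB21D1, RPH3A and the markers) were named after their values were seen. So were the lesser transcript rows of OAS1 and OASL. Results that concern items withheld for evaluation are not reported here.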

Additional observations from a re-analysis of the deposited data

How the results depend on the processing

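Every alternative kept OAS1, OAS2, OAS3 and OASL above 0, with 18 alternatives each for OAS1, OAS3 and OASL and 12 for OAS2. OAS2 could not be fitted at a filter of 5 FPKM, without either knockdown library, or from its highest transcript alone. Where the filter of 1 FPKM applied, OAS2 passed it only through the knockdown libraries, so its sign there is no support. The replicate block changes the standard error and not the difference, so many of these fits repeat a value. Leaving out 1 library at a time, the log2 difference ran from 1.13 to 1.5 for OASL, from 0.39 to 0.94 for OAS1, from 0.38 to 0.54 for OAS2 (0.86 with all libraries at a pseudocount of 0.1) and from 0.046 to 0.30 for OAS3, and none passed. There the lone library of a group is assumed to vary like the other group.

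The replicate block gave OASL 1.31 (adjusted p 0.00283). With the block OASL also passed under median-of-ratios scaling (1.29), upper-quartile scaling (1.31), a pseudocount of 0.1 (1.38), a filter at 5 FPKM (1.31) and, in an alternative added after the data were seen, its highest transcript alone (1.21), and did not pass with no filter (adjusted p 0.101). OAS1 passed with the block under median-of-ratios scaling (0.64) and upper-quartile scaling (0.66). The gap between replicates 2 and 1 correlated at r = 0.645 between the groups over 12136 genes (genes are no independent replicates). The labels do not say that the number pairs cultures. A block with 1 library left out leaves no spread to test.

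Over all genes, 0 were called without the block, 1 at a filter of 5 FPKM, 3 with median-of-ratios, 2 with upper-quartile and 3 with equal-sum scaling, and 6 to 14 without 1 library. With the block 417 were called, 887 with median-of-ratios and 890 with upper-quartile scaling, 287 with a pseudocount of 0.1, 424 at 5 FPKM and 0 with no filter (smallest adjusted p 0.0651, 2790 genes at an unadjusted p under 0.05 in limma). With 2 libraries a group, differences as small as that of OAS3 lie within the intervals given.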

Other observations

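Genes for enzymes related to the OAS proteins in fold were looked up as a list. Of 13 nucleotidyltransferase and related genes all were tested, 0 were called in either limma fit (0% and 3.44% of all genes tested were) and 6 were above 0 (median log2 difference -0.004, against 0.01 over all genes tested). MB21D1, which encodes the DNA sensor cGAS, was at 14.3 and 13.6 FPKM in control cells against 13.2 and 17.6 FPKM with the knockdown, with groups that overlapped. It was named after its values were seen. MIEF1, a mitochondrial dynamics protein with this fold, had the largest difference, at 18.3 and 17.2 against 14.0 and 14.5 FPKM (adjusted p in limma 0.786 without and 0.154 with the replicate number).

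Genes that flank the OAS genes on chromosome 12 were looked up in the same way. Of 9 neighbours 4 were tested, 0 were called, too few to read against 3.44%, and 0 were above 0 (median -0.10). PTPN11, a phosphatase of receptor signalling, had the largest difference, at 72.1 and 92.2 FPKM in control cells against 57.8 and 69.6 FPKM with the knockdown (adjusted p in limma 0.808 and 0.0614). RPH3A, which lies next to OAS1, was at 0.0097 FPKM or less in every library.

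Among the markers of the line AXL was called lower with the replicate number as a term (292 and 318 to 227 and 231 FPKM, adjusted p in limma 0.569 without and 0.0469 with it). Of the luminal markers CLDN3 had the largest difference, at 4.99 and 1.29 against 4.47 and 3.33 FPKM, without passing.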
